A study of Mus musculus with 12 samples.

Results

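The comparison described here is between control hippocampal slices frozen 3 hr and 1 hr after vehicle treatment, that is, between slices in which long-term potentiation (LTP) was never induced. Its members are the 3 hr control replicates 1, 2 and 3 and the 1 hr control replicates 1, 2 and 3, which are 6 of the 12 RNA-seq libraries of the series, and all genes of the count tables were examined. The mice were wild type C57BL/6 males, 2 to 3 months old. Acute slices were cut from the hippocampus, the dentate gyrus was trimmed off, and the slices recovered in a perfused interface chamber. Control slices then received artificial cerebrospinal fluid (ACSF) with 0.2% DMSO for 10 min and stayed in the chamber for 1 hr or 3 hr. The other 6 libraries came from slices of the same animals treated with forskolin, KCl and calcium to induce chemical LTP, and their values are used only where stated. Each library carries the label of 1 animal, from which several slices were taken. The labels use animal numbers 1 to 3 at both times without saying whether the animals were the same. The methods split the slices of each animal between LTP and control, so the times were taken to come from different animals, and time and animal cannot be told apart. No slice frozen before the 1 hr point was analysed here.

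Cutting a brain slice severs neurites and vessels, stops blood flow and releases the contents of damaged cells. Microglia, the resident phagocytes of the brain, and astrocytes, its main supporting glia, sense such damage through receptors that signal to the transcription factor NF-kB, which switches on cytokine and chemokine genes together with its own inhibitors. The cytokines then act on neighbouring cells through JAK kinases and STAT transcription factors, and interferon-stimulated genes form a further layer. The comparison asks which transcripts change with time in the chamber when no LTP is induced.

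Genes of inflammation were higher at 3 hr than at 1 hr in the control slices. Among 38 cytokine and chemokine genes tested, 23 were higher and 3 lower. All 17 differing genes of the NF-kB list were higher, as were 23 of 24 differing interferon-stimulated and antigen presentation genes, and 17 of 29 astrocyte reactivity genes were higher with none lower. In contrast, 13 of 20 microglial marker genes, 7 of 10 mural cell genes and 5 of 12 endothelial genes were lower, and none of these 3 lists had a higher member. Genes of glutamate receptors and vesicle release were called in 28.6% and 31.6% of cases, not above the 32.8% of all genes tested. Of the 12 differing glutamate receptor and scaffold genes 1 was called under each of the 3 fits described below, and of the 12 differing vesicle release genes 6 were.

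Counts per library ran from 38828504 to 50815001 in the control slices, so counting error was small for all but rare transcripts, and 3 counts corresponded to between 0.0584 and 0.0775 CPM, the unit of counts relative to library size used throughout. CPM values were scaled by the TMM method over the 12 libraries, and a group of 3 values gives replicates 1, 2 and 3 in that order. 1 hr control replicate 2 was set aside by the study as an outlier. In this library a single gene ID without a match in the annotation (ENSMUSG00000045999.8) took 1.54% of the counts, against 0.00677% to 0.0956% in the other 5 control libraries. It was left out of the main fit, which held 11 libraries in 4 groups, and the counts of the main lists and the fold changes of leading genes are given again with it. Loci known to collect reads of ribosomal RNA (Gm42418, Gm26917, Lars2, Gm23935 and Mir6236, chosen after their values were seen) summed to 0.178%, 0.191% and 0.0825% of counts in the 1 hr controls and to 0.948%, 1.56% and 1.06% in the 3 hr controls. The part of this shift in the results was not tested.

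In the main fit 6102 of 18584 genes tested (32.8%) were called different by the quasi-likelihood test of edgeR, with calls made below an adjusted p of 0.1 where the fold change also exceeded 1.2. Of these, 2987 (16.1% of genes tested) were higher at 3 hr and 3115 (16.8%) were lower. The median log2 fold change was 0.52 among the genes called higher and -0.47 among those called lower, and 512 (2.76%) and 521 genes (2.8%) passed 2-fold in the respective directions. With 1 hr control replicate 2 included, 4991 of 18240 genes (27.4%) were called, 2736 higher (15.0%) and 2255 lower (12.4%). A fit of the 6 control libraries alone called 29.7% of genes tested, and a fit of 5 control libraries without that replicate called 37.0% (19.8% higher). Of the 6102 calls, 4596 (75.3%) were made again with all 12 libraries and 0 turned to the opposite direction. For 4974 called genes (81.5%) the levels of the 3 hr and 1 hr controls did not overlap over all 6 libraries. Among all genes tested 42.7% had groups without overlap (21.8% with 3 hr higher and 20.9% with 3 hr lower), or 60.7% when 1 hr control replicate 2 was left out.

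**Figure D1:**
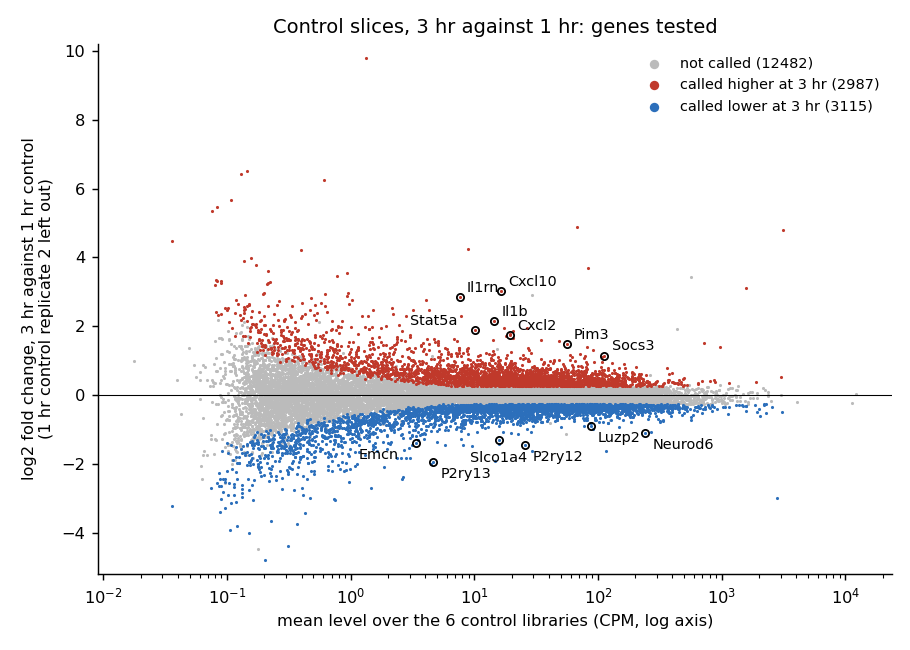
Log2 fold change of each gene tested between 3 hr and 1 hr control slices (vertical axis, 1 hr control replicate 2 left out) against its mean level over the 6 control libraries in CPM (log axis). Red points are the 2987 genes called higher at 3 hr, blue points the 3115 called lower and grey points the genes not called, and circles mark genes named in the text.

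For most called genes the left-out library lay between the times. On a log2 scale that puts the mean of the other 1 hr controls at 0 and the mean of the 3 hr controls at 1, its median position over the 6102 called genes was 0.45 (interquartile range 0.224 to 0.674), and for 2694 genes (44.1%) it lay nearer to the 3 hr controls. For 626 genes (10.3%) it lay on the far side of the 1 hr mean. Fold changes with this library included were therefore somewhat smaller for most genes. The genes were called from the other libraries, which also set 0 and 1. A library outside that choice tends inward from 0, and the size of this effect was not tested.

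GC content moved with the comparison. Genes were ordered by exonic GC content and cut into 5 groups of equal number. In the group with the lowest GC content (up to 43.8%) 3.69% of genes were called higher and 34.6% lower, and in the group with the highest (from 55.3%) 38.4% were called higher and 3.64% lower. The median log2 fold change ran over the 5 groups from -0.22 to 0.28. The difference between the median deviations of high-GC and low-GC genes was -0.26, 0.09 and -0.36 (log2) in the 1 hr controls and 0.07, 0.15 and 0.32 in the 3 hr controls. The cause of this gradient was not tested. Offsets per library for GC content and length brought the shares in the 5 groups to between 10.5% and 12.4% higher and between 13% and 15.2% lower, with 4726 calls in all (25.4%). A total of 3098 genes were called in the same direction in the main fit, with 1 hr control replicate 2 included and with the offsets, 1509 higher (8.12% of genes tested) and 1589 lower (8.55%). These are referred to below as called in all 3 fits, and each list is read against these shares.

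**Figure D2:**
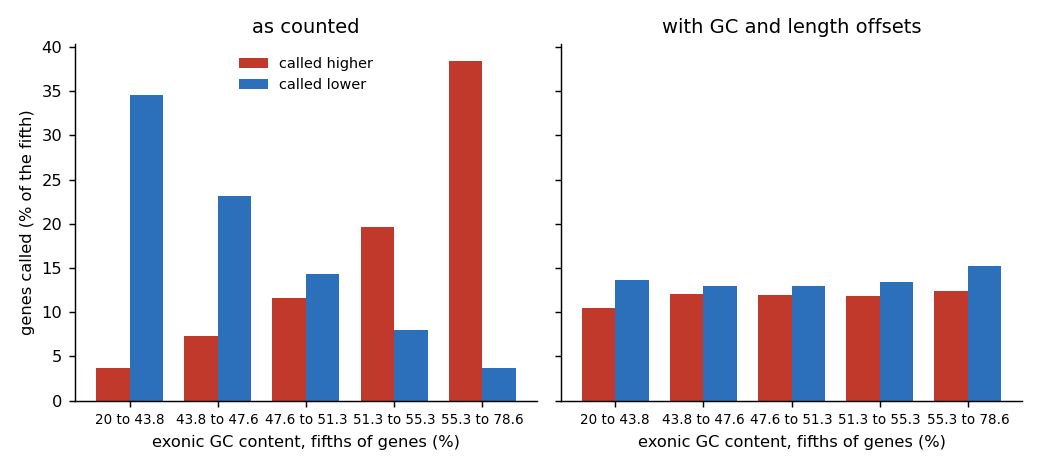
Share of genes called higher (red) and lower (blue) at 3 hr in 5 groups of genes of equal number by exonic GC content, as counted (left) and with offsets for GC content and length in each library (right). Without the offsets the share called higher runs from 3.69% to 38.4% and the share called lower from 34.6% to 3.64%.

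Cytokine and chemokine genes formed the list with the highest median log2 fold change, 0.83 over its 38 genes tested, where the median over all genes tested was -0.02. Of these genes, 23 were higher and 3 lower, and 20 were higher and 1 lower in all 3 fits. With 1 hr control replicate 2 included, 26 were higher and 2 lower. Cxcl10 (chr5:92346638-92348889), an interferon-induced chemokine for T cells, was at 3.59, 5.46 and 3.32 CPM at 1 hr and at 15.2, 36.6 and 33.7 CPM at 3 hr. The groups did not overlap, and the lowest 3 hr level, in replicate 1, was well above every 1 hr level. The log2 fold change was 3.02 (SE 0.38, adjusted p = 0.000143) and was 2.78 with the left-out library included.

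The interleukin 1 family showed both its ligand and its natural antagonist. Il1b, the secreted proinflammatory ligand, was at 4.44, 4.72 and 6.04 CPM at 1 hr and at 27.9, 24.8 and 18.5 CPM at 3 hr (log2 fold change 2.14, SE 0.28, adjusted p = 0.000189). Il1rn, the receptor antagonist that blocks it, was at 1.68, 2.13 and 1.94 CPM at 1 hr and at 13.9, 16.4 and 9.57 CPM at 3 hr (log2 fold change 2.84, SE 0.29, adjusted p = 4.86e-05). Both genes had 1 hr levels close together and a lower value in 3 hr control 3 than in the other 3 hr libraries. With 1 hr control replicate 2 included the log2 fold changes were 2.23 for Il1b and 2.78 for Il1rn. Il1a was higher by a smaller step (log2 fold change 0.28, adjusted p = 0.056). Il18, a related cytokine, was at 14.2, 13.6 and 15.0 CPM at 1 hr and at 11.5, 12.3 and 10.5 CPM at 3 hr (log2 fold change -0.38, adjusted p = 0.0357), and its difference was 0.02 (adjusted p = 0.913) with GC and length offsets. Il33, an alarmin stored in nuclei, had a log2 fold change of -0.43 (adjusted p = 0.064) and was not called with the left-out library included (adjusted p = 0.176).

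Some chemokine genes that attract neutrophils or monocytes were higher. Cxcl2, which recruits neutrophils, was at 10.1, 9.93 and 7.27 CPM at 1 hr and at 28.7, 32.0 and 28.2 CPM at 3 hr (log2 fold change 1.74, SE 0.12, adjusted p = 7.97e-06). Its levels did not overlap, and the log2 fold change was 1.7 with the left-out library included. Its neighbour Cxcl1 rose by 0.98 (adjusted p = 0.000241). Cxcl3 was at 0, 0.0621 and 0.0711 CPM at 1 hr, no more than 3 counts a library, and at 0.779, 0.806 and 0.662 CPM at 3 hr (adjusted p = 0.00133), and no fold is given because the 1 hr levels lie at the counting floor. Ccl2, the main monocyte attractant, was at 8.6, 9.89 and 8.48 CPM at 1 hr and at 24.6, 36.4 and 34.5 CPM at 3 hr (log2 fold change 1.87, adjusted p = 5.89e-05, and 1.82 with the left-out library included). Ccl4, Ccl7 and Ccl9 rose by 1.58, 1.46 and 1.03. No marker of neutrophils or monocytes differed: 1 of 10 such genes passed the filter on low counts (Mpo, adjusted p = 0.36), Ly6g was 0 in every control library, and the summed level of the list lay between 0.207 and 0.564 CPM.

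Some cytokines that act through receptors of the interleukin 6 and growth factor families were also higher. Il6 was at 3.0, 4.51 and 4.59 CPM at 1 hr and at 9.02, 10.6 and 7.24 CPM at 3 hr (log2 fold change 1.2, SE 0.21, adjusted p = 0.000953). Lif, Il11 and Osm, which share the receptor subunit of Il6, rose by 1.33, 1.55 and 0.76. Csf3, which drives granulocyte production, was at 1.16, 1.86 and 0.687 CPM at 1 hr and at 3.87, 6.27 and 5.33 CPM at 3 hr (log2 fold change 2.46, adjusted p = 0.000535). Il12b, a subunit of interleukins 12 and 23, was at 1.01, 1.57 and 1.54 CPM at 1 hr and at 3.76, 11.1 and 6.87 CPM at 3 hr (log2 fold change 2.47, adjusted p = 0.000732). The 3 hr levels of Il12b were the most spread of these genes, yet none overlapped the 1 hr levels. Tgfb2, an anti-inflammatory growth factor, was lower, at 87.0, 73.4 and 71.3 CPM against 60.9, 62.0 and 61.4 CPM (log2 fold change -0.39, adjusted p = 0.00376), and it was lower in all 3 fits.

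**Figure D3:**
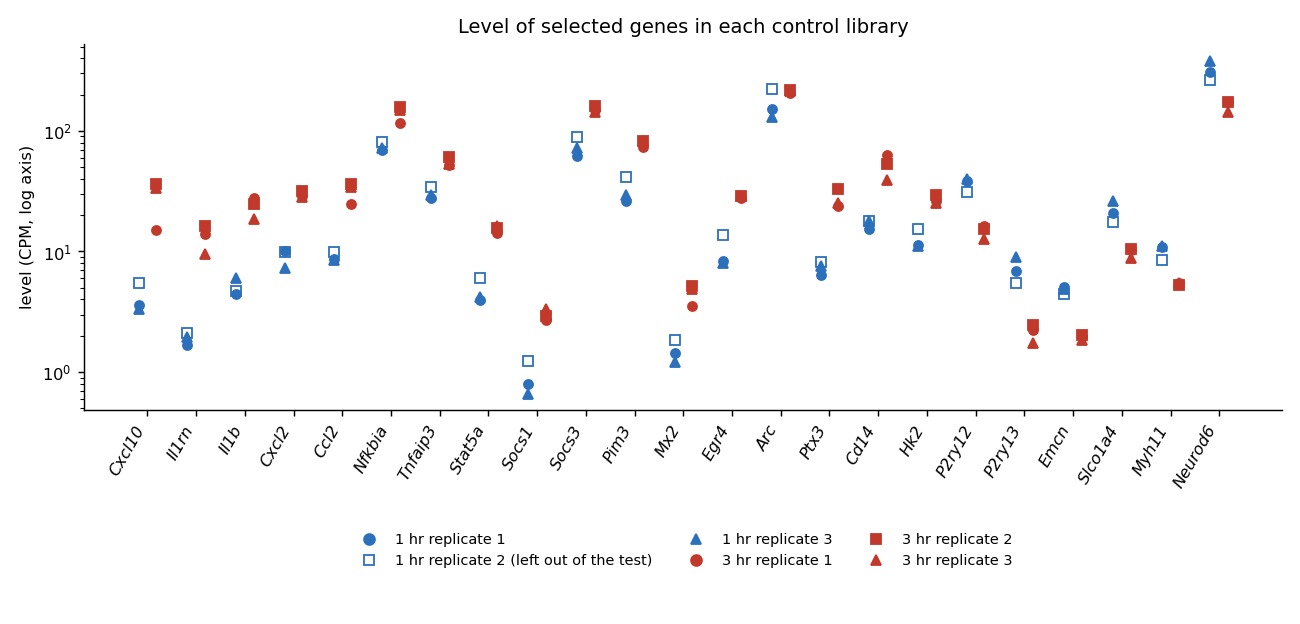
Level of selected genes in each control library in CPM (log axis), with 1 hr libraries in blue, 3 hr libraries in red and a marker shape for each replicate, the open square being 1 hr control replicate 2. The 3 hr levels of Cxcl10 (15.2 to 36.6 CPM) and Pim3 (73.9 to 82.1 CPM) lie above all 1 hr levels, those of P2ry12 (12.6 to 16.3 CPM) lie below, and those of Arc overlap the open square.

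NF-kB is held in the cytoplasm by inhibitor proteins and, once released, binds short sites in the promoters of its targets. The window from 250 bases before to 50 bases after the annotated start was searched on both strands for GGG, any 2 bases and then TTTCC, with promoter sequences from RefSeq (GRCm38.p6). The 30-base windows shown here, read on the strand of the gene with the match in capitals, belong to chemokine, cytokine and NF-kB pathway genes that were higher at 3 hr and, for balance, to Rel, which was not called in the main fit, and to B2m and Il16, which were lower.
Cxcl2: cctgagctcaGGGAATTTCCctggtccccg
Cxcl1: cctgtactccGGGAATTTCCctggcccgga
Cxcl3: gagctgcgggGGGAATTTCCccagcccggg
Il6: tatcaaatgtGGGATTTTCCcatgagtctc
Il1rn: ggaaatatgaGGGTTTTTCCgcttctgaca
Nfkb2: tggtattttcGGGACTTTCCtaagcagcac
Nfkbia: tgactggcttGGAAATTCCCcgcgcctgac
Rel: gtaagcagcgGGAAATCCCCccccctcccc
B2m: actgaaaatgGGAAAGTCCCtttgtaacct
Il16: catgactgctGGGAATTTCCcgctaaaggt

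These windows lie at chr5:90903792-90903821 (plus strand) for Cxcl2, chr5:90891164-90891193 (plus) for Cxcl1, chr5:90786018-90786047 (plus) for Cxcl3, chr5:30013060-30013089 (plus) for Il6, chr2:24345310-24345339 (plus) for Il1rn, chr19:46305695-46305724 (plus) for Nfkb2, chr12:55492657-55492686 (minus) for Nfkbia, chr11:23771041-23771070 (minus) for Rel, chr2:122147551-122147580 (plus) for B2m and chr7:83655525-83655554 (minus) for Il16. Cxcl1, Cxcl2, Cxcl3 and Il16 hold the same letters in capitals, and Il16 was lower at 3 hr (log2 fold change -0.32, adjusted p = 0.00631). In Nfkbia, Rel and B2m the match is on the opposite strand. Of 15972 promoter windows of tested genes, 261 (1.63%) held a match. The share was 49 of 2725 (1.8%) among windows of genes called higher, 39 of 2600 (1.5%) among those called lower, and 19 of 309 (6.15%) among those of genes over 2-fold higher. For the letters TGANTCA, the site of AP-1 (dimers of Fos and Jun proteins), the share was 5.45% of all windows and 13.9% of those over 2-fold higher. TTCNNNGAA, the STAT site, was found in 6.88% of all windows and 11.3% of those over 2-fold higher, and TATAAA in 7.68% and 13.3%. Among windows of all genes called higher the shares were 6.86% and 7.12%, no more than in all windows. TGACGTCA, the cAMP response element, was found in 2.81% of all windows and 0.647% of those over 2-fold higher. The heat shock element, searched as GAA, TTC and GAA with any 2 bases between neighbours, was found in 0.47% and 0.324%. None of these letters contains another as written, although matches may overlap in a window, and the shares are descriptions without a test.

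In the list of NF-kB subunits, inhibitors and feedback genes 17 of 28 were higher and 0 lower (median log2 fold change 0.47), and 13 were higher in all 3 fits. With the left-out library added, 18 were higher and 0 lower. Nfkbia, the inhibitor that NF-kB itself induces, was at 69.5, 80.3 and 72.1 CPM at 1 hr and at 116, 157 and 150 CPM at 3 hr (log2 fold change 0.96, SE 0.11, adjusted p = 7.06e-05). Tnfaip3, a ubiquitin-editing enzyme that switches the pathway off, was at 27.5, 34.0 and 29.6 CPM at 1 hr and at 52.4, 61.1 and 53.1 CPM at 3 hr (log2 fold change 0.93, SE 0.08, adjusted p = 2.01e-05). Neither gene had overlapping groups, although for Nfkbia the gap between them was smaller than the spread of the 3 hr levels. Among the subunits, Nfkb2 and Relb, which pair in the non-canonical pathway, rose by 1.16 and 1.03, and Nfkb1 rose by 0.38. Rela and Rel had log2 fold changes of 0.36 (adjusted p = 0.116) and 0.30 (adjusted p = 0.108) and were not called, but Rel was called higher with the left-out library included (0.35) and with GC and length offsets (0.47). The kinases Ikbkb and Chuk, which release NF-kB, had log2 fold changes of 0.00 (adjusted p = 0.992) and -0.02 (adjusted p = 0.885), while Ikbke, an inducible relative, rose by 1.01. The largest rises were those of Tnfaip2 (1.71), the receptor adaptor Traf1 (1.45) and Ptges (1.19), a prostaglandin synthase. Tnfaip2 was at 7.05, 8.79 and 9.5 CPM at 1 hr and at 27.4, 35.0 and 20.6 CPM at 3 hr.

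Among 35 genes of the JAK-STAT pathway with its SOCS inhibitors and Pim kinases, 14 were higher and 3 lower, and 12 were higher and 1 lower in all 3 fits. When 1 hr control replicate 2 was included, 15 were higher and 2 lower. Pim3, a cytokine-induced survival kinase, had the smallest p of all genes. It was at 26.4, 41.6 and 29.2 CPM at 1 hr and at 73.9, 81.7 and 82.1 CPM at 3 hr (log2 fold change 1.48, SE 0.09, adjusted p = 2.04e-06). The left-out library was the highest of the 1 hr controls, and the log2 fold change with it included was 1.29. With GC and length offsets it was 0.97. Stat5a, a transcription factor of growth factor and cytokine receptors, was at 3.95, 6.0 and 4.17 CPM at 1 hr and at 14.2, 15.7 and 16.2 CPM at 3 hr (log2 fold change 1.89, SE 0.12, adjusted p = 3.34e-06), and the log2 fold change was 1.7 with the left-out library included. Its near copy Stat5b rose by 0.37, and Stat3, the main transcription factor of interleukin 6 signals, rose by 0.73 from 76.3, 88.6 and 81.1 CPM to 124, 143 and 132 CPM. The SOCS genes, which are induced by STATs and shut their receptors down, included Socs1 (log2 fold change 2.00), Socs3 (1.14), Cish (0.99) and Socs5 (0.39), all higher. Socs3 was at 61.8, 89.4 and 72.3 CPM at 1 hr and at 149, 161 and 142 CPM at 3 hr (adjusted p = 2.01e-05). Osmr, the receptor for oncostatin M, rose by 0.48. The phosphatases Ptpn2 and Ptpn6, which remove phosphate from JAKs and STATs, fell by 0.37 and 0.48 on the log2 scale, but Ptpn2 was not called with GC and length offsets (log2 fold change -0.17). The inhibitor Pias1 fell by 0.31, a call that was lost with the left-out library included (adjusted p = 0.0587, log2 fold change -0.20, under the fold minimum).

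Interferon-stimulated and antigen presentation genes were higher in 23 of 37 cases and lower in 1 (median log2 fold change 0.63), and 19 were higher and 0 lower in all 3 fits. With the left-out library added, the counts were again 23 and 1. Irf1, a transcription factor of interferon responses, was at 24.5, 36.0 and 30.3 CPM at 1 hr and at 45.7, 65.6 and 60.5 CPM at 3 hr (log2 fold change 1.03, SE 0.15, adjusted p = 0.000336). Mx2, of the antiviral GTPase family, was at 1.45, 1.84 and 1.21 CPM at 1 hr and at 3.5, 5.2 and 4.85 CPM at 3 hr (log2 fold change 1.74, adjusted p = 0.000104). It is annotated as a polymorphic pseudogene, so a working protein is not assumed. Rsad2, Gbp2, Gbp3 and Ifit1, which encode antiviral effectors, rose by 1.48, 1.08, 0.89 and 0.87. Some genes of the class I antigen presentation pathway shared the direction: the peptide transporter gene Tap1 rose by 1.2, its activator Nlrc5 by 1.58, and the heavy chain genes H2-K1 and H2-D1 by 0.66 and 0.52. B2m, the light chain of the same complex, was the only gene of the list called lower. It was at 114, 73.3 and 96.1 CPM at 1 hr and at 63.9, 67.1 and 63.6 CPM at 3 hr (log2 fold change -0.72, adjusted p = 8.66e-05). With GC and length offsets the log2 fold change of B2m was -0.23 (adjusted p = 0.124).

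Astrocyte reactivity genes were higher in 17 of 29 cases and lower in none (median log2 fold change 0.76), and 16 were higher in all 3 fits. The other 12 were not called, among them Gfap, Vim, Serpina3n, Lcn2 and C3. When 1 hr control replicate 2 was included, 16 were higher and 0 lower. Ptx3, a secreted pattern recognition protein, was at 6.35, 8.11 and 7.51 CPM at 1 hr and at 23.8, 32.7 and 25.1 CPM at 3 hr (log2 fold change 1.94, SE 0.22, adjusted p = 7.06e-05). Steap4, a metalloreductase, was at 0.801, 1.26 and 1.02 CPM at 1 hr and at 3.63, 5.64 and 4.49 CPM at 3 hr (log2 fold change 2.30, adjusted p = 8.39e-05). Cd44, the hyaluronan receptor, was at 8.29, 8.03 and 7.84 CPM at 1 hr and at 18.3, 22.1 and 20 CPM at 3 hr (log2 fold change 1.29, adjusted p = 6.95e-05). All 3 genes had separate groups. The list shares Cxcl10, Cd14, Socs3, Gadd45b, Osmr, Timp1, Hspb1 and Cd44 with other lists described here, so the lists are not independent. Markers that define astrocytes showed a mixed picture, with 4 of 14 higher and 1 lower and a summed level between 6000 and 6370 CPM at 1 hr and between 6120 and 6290 CPM at 3 hr. Of these, the connexin gene Gjb6 and the transcription factor gene Sox9 were higher in all 3 fits (log2 fold changes 0.52 and 0.72).

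Genes of the extracellular matrix, its proteases and their inhibitors were higher in 22 of 38 cases and lower in 5, and in all 3 fits 18 were higher and 2 lower. With the left-out library added, 19 were higher and 3 lower. Has2, which makes hyaluronan, was at 1.81, 2.54 and 3.15 CPM at 1 hr and at 7.18, 8.56 and 7.16 CPM at 3 hr (log2 fold change 1.58, SE 0.22, adjusted p = 0.000263). Mmp3, a matrix metalloproteinase, was at 0, 0.103 and 0.0237 CPM at 1 hr and at 0.865, 1.37 and 1.28 CPM at 3 hr (adjusted p = 4.86e-05), again without a fold because of the counting floor. Timp1, an inhibitor of such proteases, rose by 1.55 from 1.21, 1.49 and 1.09 CPM to 3.07, 4.18 and 3.09 CPM. Adamts4, which cleaves the proteoglycans around neurons, was at 39.5, 40.1 and 31.7 CPM at 1 hr and at 74.6, 96.2 and 73.9 CPM at 3 hr (log2 fold change 1.17, adjusted p = 6.9e-05). Acan, a proteoglycan of perineuronal nets and a substrate of this enzyme, rose by 1.11. Parts of the plasminogen system were higher too, with Plat, Plau and Plaur up by 0.49, 0.64 and 0.84. Ccn1, a matrix protein and YAP target, was lower, at 24.5, 35.3 and 34.9 CPM against 20.7, 18.4 and 16.5 CPM (log2 fold change -0.71, adjusted p = 0.00139).

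Of 20 markers that identify microglia, 13 were lower and 0 higher (median log2 fold change -0.39), 9 of them in all 3 fits. When 1 hr control replicate 2 was included, 10 were lower and 0 higher. Their summed level was 580, 547 and 596 CPM at 1 hr and 470, 468 and 422 CPM at 3 hr. P2ry12, the purinergic receptor that guides microglial processes to damage, was at 38.6, 31.0 and 39.9 CPM at 1 hr and at 16.3, 15.5 and 12.6 CPM at 3 hr (log2 fold change -1.44, SE 0.12, adjusted p = 1.78e-05). Its neighbour and relative P2ry13 was at 6.92, 5.44 and 9.02 CPM at 1 hr and at 2.23, 2.46 and 1.75 CPM at 3 hr (log2 fold change -1.93, SE 0.19, adjusted p = 4.12e-05). Both had the left-out library as the lowest of the 1 hr levels, still above every 3 hr level, and with it included the log2 fold changes were -1.3 for P2ry12 and -1.73 for P2ry13. Cx3cr1, the fractalkine receptor, Tmem119, Gpr34 and Selplg fell by 0.81, 0.74, 0.93 and 1.06 on the log2 scale. Other markers of the same cells were not called: Tyrobp had a log2 fold change of 0.11 (adjusted p = 0.51), Fcrls 0.02 (adjusted p = 0.896), Trem2 -0.15 (adjusted p = 0.464) and C1qc -0.09 (adjusted p = 0.494), though C1qc was called lower with GC and length offsets (-0.28). In bulk tissue fewer cells of a type and less RNA per cell cannot be told apart, for this and the other marker lists.

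Genes induced when microglia are activated were higher in 8 of 24 cases, all 8 in all 3 fits, and lower in none. Cd14, the lipopolysaccharide and damage coreceptor, was at 15.3, 17.9 and 17.8 CPM at 1 hr and at 63.2, 52.9 and 39.1 CPM at 3 hr (log2 fold change 1.61, SE 0.19, adjusted p = 8.39e-05). Lgals3, which encodes galectin 3, and Ch25h, which makes an immune oxysterol, rose by 1.64 and 1.00. Tlr2 and the inflammasome sensor gene Nlrp3 rose by 0.75 and 0.58. The 16 other genes of the list were not called, among them Cd68, Spp1 and Apoe, but Apoe was called lower with GC and length offsets (-0.46). The median of the activation list was 0.13 (log2), and the plot of both microglial lists shows that 7 markers and 16 activation genes, many of them near 0, were not called.

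**Figure D4:**
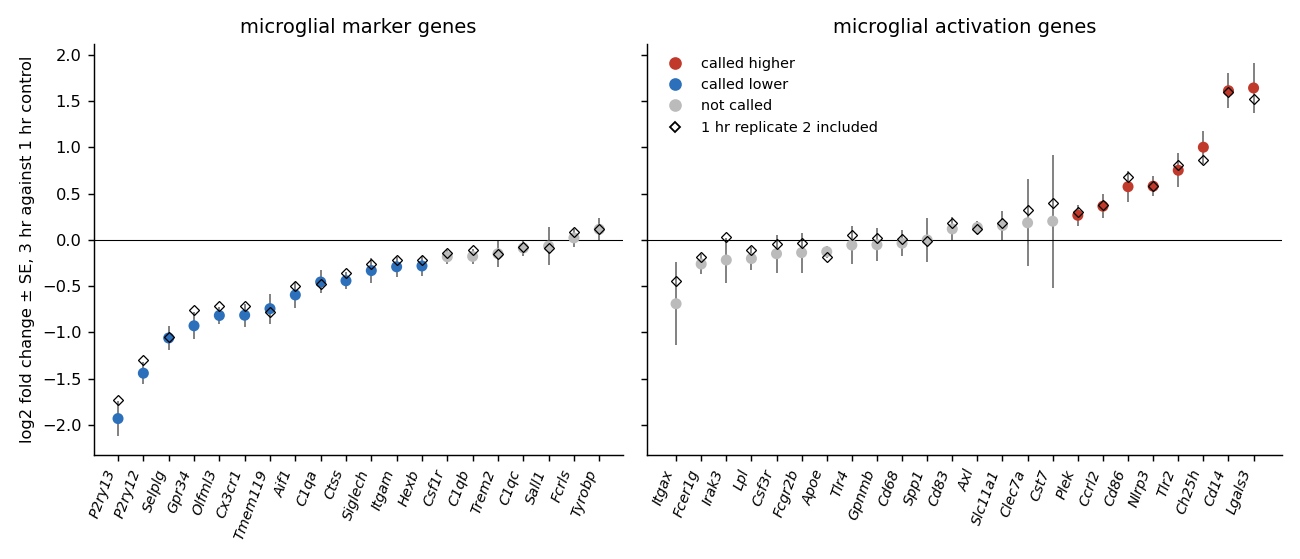
Log2 fold change between 3 hr and 1 hr controls of 20 microglial marker genes (left) and 24 microglial activation genes (right), with the standard error as bars and the value with 1 hr control replicate 2 included as open diamonds. P2ry13 (-1.93) and P2ry12 (-1.44) are the lowest of the markers, Lgals3 (1.64) and Cd14 (1.61) the highest of the activation genes, and grey points were not called.

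Of 10 mural cell genes, which mark pericytes and smooth muscle, 7 were lower, 6 of them in all 3 fits, with a summed level of 210, 199 and 213 CPM at 1 hr and of 159, 160 and 153 CPM at 3 hr. Myh11, the smooth muscle myosin, was at 10.8, 8.58 and 11.1 CPM at 1 hr and at 5.47, 5.25 and 5.47 CPM at 3 hr (log2 fold change -1.05, SE 0.16, adjusted p = 0.000409, and -0.91 with the left-out library included). Acta2, smooth muscle actin, fell by 0.98 on the log2 scale and the pericyte gene Rgs5 by 0.48. Of 12 endothelial genes, 5 were lower, all 5 in all 3 fits. With the left-out library added, 7 mural and 5 endothelial genes were lower and none higher. Emcn, a sialomucin of capillaries and veins, was at 5.06, 4.45 and 4.9 CPM at 1 hr and at 1.95, 2.03 and 1.85 CPM at 3 hr (log2 fold change -1.39, SE 0.13, adjusted p = 2.82e-05, and -1.31 with the left-out library included). Slco1a4, an anion transporter of the blood-brain barrier, fell by 1.30 from 21, 17.4 and 26.4 CPM to 10.3, 10.4 and 8.91 CPM. The junction genes Cldn5 and Cdh5 had log2 fold changes of 0.09 (adjusted p = 0.551) and 0.19 (adjusted p = 0.475), and Kdr 0.03 (adjusted p = 0.885). The endothelial list summed to 167, 153 and 160 CPM at 1 hr and to 128, 134 and 132 CPM at 3 hr.

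Oligodendrocyte genes were higher in 4 of 12 cases (Mbp, Mag, Cnp and Cldn11, all 4 in all 3 fits), a share of 33.3% against 32.8% of all genes tested. Their summed level was 8390, 6940 and 6700 CPM at 1 hr and 9100, 10600 and 8720 CPM at 3 hr. The groups did not overlap, but the gap between them was smaller than the spread within either. Of 8 oligodendrocyte precursor genes, 4 were higher (Cspg4, Olig1, Olig2 and Sox10, with log2 fold changes of 0.68, 0.51, 0.56 and 0.72) and 0 lower, and Cspg4 alone was higher in all 3 fits. Of 8 meningeal fibroblast genes 2 were lower, Ogn and Slc6a13, both in all 3 fits, and the median of the list was -0.41, or -0.18 with 1 hr control replicate 2 included and 0.03 without 1 hr control replicate 1, when replicate 3 was the only 1 hr control fitted. Among 12 pyramidal neuron genes 2 were higher (Bok 0.74, Fibcd1 0.40) and 2 lower (Neurod6 and Cpne4), a share of 33.3%, near that of all genes tested. Bok was higher and both lower genes were lower in all 3 fits, while with GC and length offsets Bok was at 0.38 and Fibcd1, at 0.03 (adjusted p = 0.883), was not called. Neurod6, a transcription factor of pyramidal neurons, was at 306, 262 and 382 CPM at 1 hr and at 173, 173 and 144 CPM at 3 hr (log2 fold change -1.10, SE 0.12, adjusted p = 6.9e-05), and Bok was at 42.1, 53.1 and 48.8 CPM at 1 hr and at 80, 77.6 and 74.2 CPM at 3 hr. The glutamatergic markers Slc17a7 and Camk2a had log2 fold changes of 0.08 and 0.10 and were not called. The pyramidal list summed to between 3780 and 3960 CPM at 1 hr and between 3800 and 3950 CPM at 3 hr. Among 12 interneuron genes, 1 was higher and 5 were lower, and Npy, Cck and Lhx6 were lower in all 3 fits (log2 fold changes -0.64, -0.48 and -0.39). Slc32a1, the vesicular GABA transporter, was the higher gene (0.55, and 0.00 with the offsets), and the neuropeptide genes Sst (adjusted p = 0.177) and Vip (adjusted p = 0.448) were not called. Dentate granule cell markers were present although the dentate gyrus had been trimmed, with Prox1 between 51.7 and 63.9 CPM over the 6 libraries, and the list summed to 454, 467 and 443 CPM at 1 hr and 469, 399 and 463 CPM at 3 hr. No choroid plexus or red blood cell gene was called.

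Immediate early genes, which neurons switch on within minutes of activity, were higher in 13 of 25 cases and lower in none, and 8 of the 13 were higher in all 3 fits. When 1 hr control replicate 2 was included, 12 were higher and 0 lower. Arc is a dendritic plasticity gene, and the study made libraries only from samples in which it was raised by LTP in PCR, so differences between LTP and control slices in Arc are not independent of that choice. In the control slices Arc was at 151, 221 and 131 CPM at 1 hr and at 206, 219 and 212 CPM at 3 hr. Without 1 hr control replicate 2 the log2 fold change was 0.56 (SE 0.08, adjusted p = 0.000231), and with it the groups overlapped and the value was 0.34 (adjusted p = 0.0685). With GC and length offsets it was 0.17 (adjusted p = 0.121). Junb and Jund, subunits of AP-1, behaved likewise, with log2 fold changes of 0.54 and 0.74 and of -0.01 and 0.00 with the offsets. Genes that were higher in all 3 fits included Inhba, an activin subunit, which was at 5.16, 5.3 and 4.52 CPM at 1 hr and at 12.7, 13.1 and 12.8 CPM at 3 hr (log2 fold change 1.38, adjusted p = 8.99e-05). Egr4, a zinc finger factor, rose from 8.39, 13.6 and 8.01 CPM to 27.7, 29.1 and 28.9 CPM (log2 fold change 1.77, and 0.86 with the offsets). The synaptic pentraxin gene Nptx2 rose by 0.85 and the stress gene Gadd45b by 1.07. Npas4, Egr1, Btg2, Bdnf and Dusp1 were not called, with log2 fold changes of -0.09, 0.29, -0.03, 0.03 and 0.25.

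Homer1, a postsynaptic scaffold gene also monitored by the study, had a log2 fold change of 0.03 (adjusted p = 0.892), or 0.29 (adjusted p = 0.0618) and called with GC and length offsets, and isoforms were not separated. Hprt, which the study monitored as a gene unaltered by LTP, was at 112, 101 and 129 CPM at 1 hr and at 131, 123 and 107 CPM at 3 hr. Its groups overlapped, and the log2 fold change of -0.03 (adjusted p = 0.836) changed sign with 1 hr control replicate 2 included (0.08) and was 0.42 (adjusted p = 0.00106) with GC and length offsets. Among circadian clock genes, 7 of 24 were higher and 0 lower, a share of 29.2% called against 32.8% of all genes tested, and Cry1 and Bhlhe41, both repressors of the clock, were higher in all 3 fits. Cry1 was at 13.3, 17.9 and 14.8 CPM at 1 hr and at 27.9, 26.2 and 27.9 CPM at 3 hr (log2 fold change 0.93, SE 0.10, adjusted p = 6.51e-05).

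The integrated stress and unfolded protein response list had 15 of 40 genes higher and 3 lower, and 13 higher and 1 lower in all 3 fits. The chaperone gene Hspa5, at 424, 395 and 397 CPM at 1 hr and at 538, 523 and 520 CPM at 3 hr, rose by 0.33 (adjusted p = 0.00568). Slc7a11, the cystine importer, rose by 0.65 and the transcription factor gene Cebpb by 1.09 (0.38 with GC and length offsets), while Atf4, Atf3 and Trib3 were not among the called genes. Heat shock genes went both ways, with 7 of 39 higher and 11 lower, of which 2 and 2 were called in all 3 fits, where 16.7% of all genes tested were so called. With the left-out library added, 6 were higher and 4 lower. The inducible Hspa1a and Hspa1b, near-identical copies whose reads may be split between them, had log2 fold changes of 0.49 and 0.59 and were not called with the offsets (adjusted p = 0.516 and 0.126). Bag1 and Chordc1, cochaperones, fell by 0.44 and 0.55 on the log2 scale.

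Genes of glycolysis, lactate transport and hypoxia were higher in 13 of 40 cases and lower in 2, with 10 higher and 0 lower in all 3 fits. Hk2, the inducible hexokinase that starts glycolysis, was at 11.3, 15.5 and 11 CPM at 1 hr and at 26.4, 29.4 and 25.2 CPM at 3 hr (log2 fold change 1.25, SE 0.09, adjusted p = 7.97e-06). The neuronal glucose transporter gene Slc2a3, the regulatory enzyme gene Pfkfb3 and the lactate exporter gene Slc16a3 rose by 0.46, 0.44 and 0.98. Hif1a and the hypoxia target Bnip3 had log2 fold changes of -0.28 and -0.41, and Hif1a was not called with 1 hr control replicate 2 included nor either gene with the offsets. NRF2 targets and metallothioneins were higher in 8 of 25 cases (32.0%, near the 32.8% of all genes called) and lower in none, among them Hmox1, which degrades haem (0.66), and Mt2 (0.82), which shares 73.5% of its exonic bases with another annotated gene. Of the p53 targets and Bcl2 family 17 of 33 were higher and 1 lower, and 11 and 1 in all 3 fits. Bbc3, which encodes the proapoptotic protein PUMA, was at 2.81, 4.08 and 2.11 CPM at 1 hr and at 6.19, 7.03 and 8.29 CPM at 3 hr (log2 fold change 1.52, adjusted p = 0.00024, and 0.82 with the offsets). The prosurvival genes Bcl2a1b and Bcl2a1d, close copies of each other, rose by 1.06 and 1.23, and Ccng1 fell by 0.61 on the log2 scale.

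In the glutamate receptor and scaffold list 5 of 42 genes were higher and 7 lower, and only Grik1 (lower) was called in all 3 fits. When 1 hr control replicate 2 was included, 4 were higher and 3 lower. The scaffold genes Shank1, Shank3 and Dlgap3 had log2 fold changes of 0.49, 0.53 and 0.58, and with GC and length offsets of -0.04, -0.05 and -0.08. Grin2b, a subunit of the NMDA receptor, was at 1180, 1100 and 1190 CPM at 1 hr and at 924, 949 and 992 CPM at 3 hr (log2 fold change -0.34, adjusted p = 0.00626), and -0.17 (adjusted p = 0.134) with the offsets. Of the GABA list 5 of 25 were higher and 9 lower, with Gabra5 and Gabbr2 among the genes lower and Slc12a2 higher in all 3 fits. Gabra5, a subunit of the GABA-A receptor, was at 327, 292 and 363 CPM at 1 hr and at 254, 255 and 234 CPM at 3 hr (log2 fold change -0.51, SE 0.09, adjusted p = 0.000931). Slc12a2, the chloride importer NKCC1, rose by 0.49 from 121, 110 and 114 CPM to 167, 184 and 150 CPM.

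Vesicle release genes were higher in 5 of 38 cases and lower in 7, and 1 higher (Cplx2) and 5 lower (Snap25, Rims1, Rims2, Pclo and Rph3a) in all 3 fits. Pclo, the active zone scaffold piccolo, was at 439, 373 and 414 CPM at 1 hr and at 280, 245 and 255 CPM at 3 hr (log2 fold change -0.74, SE 0.10, adjusted p = 0.000196). Snap25, the membrane SNARE protein, was at 2870, 2390 and 2610 CPM at 1 hr and at 2030, 1960 and 1890 CPM at 3 hr (log2 fold change -0.51, adjusted p = 0.000693). Neither gene had overlapping groups. Of 38 potassium channel genes 8 were higher and 6 lower, a share of 36.8%, and 1 and 3 were called in all 3 fits, where 16.7% of all genes tested were. These were the inward rectifier gene Kcnj4 (log2 fold change 0.87) and, lower, Kcna4, Kcnq5 and Kcnj3 (log2 fold changes -0.43, -0.45 and -0.44).

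Housekeeping lists had called members of both signs. Cytosolic ribosomal protein genes were higher in 28 of 83 cases and lower in 15, and 22 and 6 in all 3 fits. Rps14 was at 82.0, 114 and 86.9 CPM at 1 hr and at 165, 168 and 162 CPM at 3 hr (log2 fold change 0.94), while Rps24 was at 381, 328 and 396 CPM at 1 hr and at 251, 250 and 229 CPM at 3 hr (log2 fold change -0.70). Values of this family depend on how reads shared with its many pseudogenes were treated, which is not stated. Processed pseudogenes themselves were lower in 363 of 1091 cases and higher in 34 (median log2 fold change -0.64). Nuclear genes for oxidative phosphorylation were higher in 17 of 78 cases and lower in 18, with 14 and 14 in all 3 fits. Proteasome genes were higher in 9 and lower in 8 of 49 cases (5 and 3 in all 3 fits), and splicing regulators in 8 and 11 of 49 (7 and 5 in all 3 fits). The shares called were 51.8% for ribosomal protein genes, 44.9% for oxidative phosphorylation, 34.7% for the proteasome and 38.8% for splicing regulators, against 32.8% of all genes tested. Replication-dependent histone genes, whose transcripts end without a poly(A) tail, were higher in 28 of 54 cases and lower in 3, with 17 and 2 in all 3 fits. Hist1h4m was at 0.852, 2.34 and 0.853 CPM at 1 hr and at 2.98, 4.27 and 3.42 CPM at 3 hr (log2 fold change 2.03, and 1.37 with the left-out library included), and Hist1h3c was at 0.103, 0.228 and 0.0947 CPM at 1 hr and at 0.454, 0.762 and 0.759 CPM at 3 hr. Histone copies are close in sequence, most were rare, and these libraries were made from total RNA. Among nuclear long noncoding RNAs Neat1, the paraspeckle scaffold, was at 61.6, 125 and 60.5 CPM at 1 hr and at 111, 96.6 and 192 CPM at 3 hr, with overlapping groups once the left-out library was counted.

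**Figure D5:**
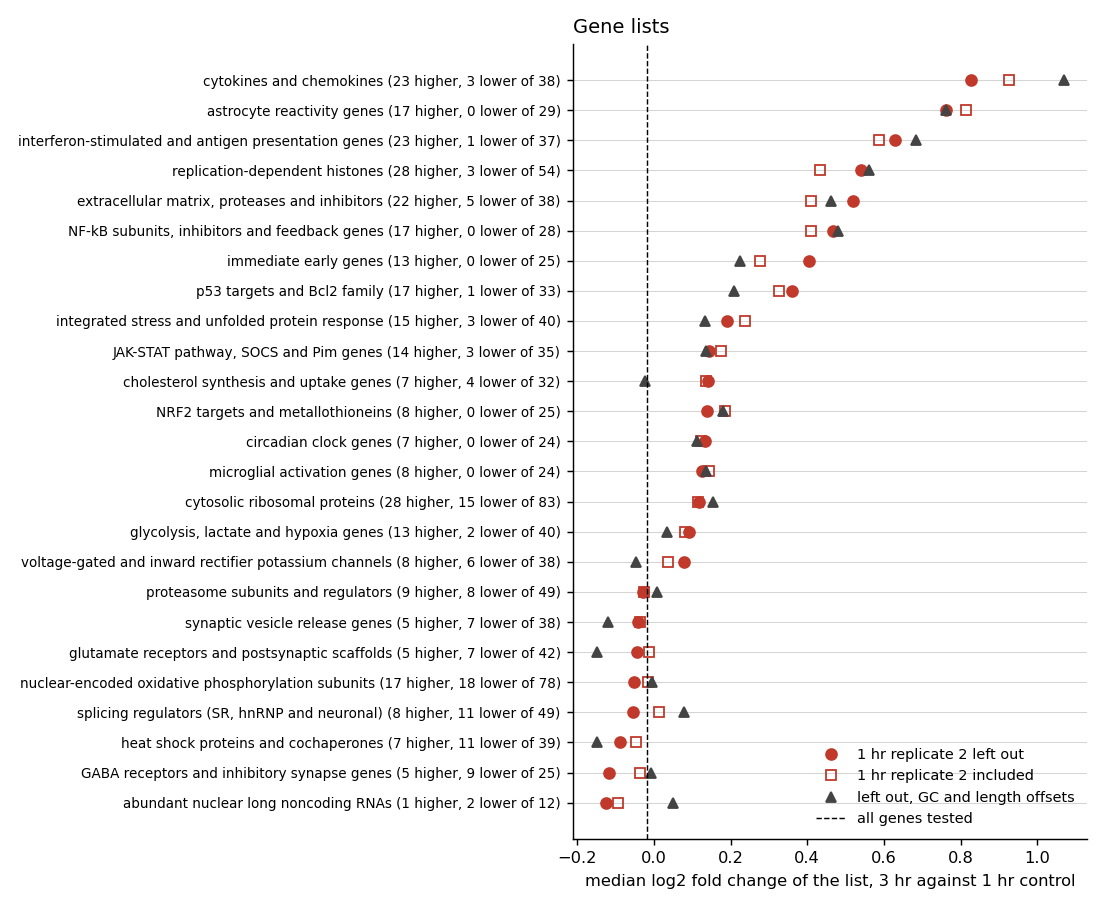
Median log2 fold change between 3 hr and 1 hr controls of each gene list, with 1 hr control replicate 2 left out (filled circles), included (open squares) and left out with GC and length offsets (triangles). Row labels give the members called higher and lower in the main fit, the dashed line is the median of all genes tested (-0.02), and the cytokine list is the highest in each of the 3 fits (0.83, 0.93 and 1.07).

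Beyond the lists, the largest rises among protein-coding genes of at least 1 CPM with separate groups included receptors and effectors of immune cells. Ccr7, a chemokine receptor of activated dendritic cells and microglia, was at 0.336, 0.683 and 0.142 CPM at 1 hr and at 2.1, 2.18 and 0.701 CPM at 3 hr (log2 fold change 2.76, adjusted p = 0.00539, and 2.05 with the left-out library included). Hcar2, a receptor for ketone bodies and niacin, was at 0.465, 0.848 and 0.734 CPM at 1 hr and at 3.74, 4.22 and 2.84 CPM at 3 hr (log2 fold change 2.54, adjusted p = 8.86e-05). The gap between the groups was wide for Hcar2 and narrow for Ccr7, whose 3 hr control 3 nearly met the left-out library. Oasl1, Gbp2b, Slamf1 and Mmp12 rose by 2.47, 2.30, 2.29 and 2.29, and Oasl1 by 1.88 with the left-out library included. The largest falls included the endosomal sensor Tlr13, at 9.14, 7.07 and 8.67 CPM at 1 hr and at 3.7, 3.59 and 2.76 CPM at 3 hr (log2 fold change -1.44, adjusted p = 3.37e-05), the transporter Slc16a4 (-1.65) and the zinc finger gene Gm14412 (-1.45). Ogn, a small proteoglycan of fibroblasts, fell by 1.28, Tpm3-rs7 by 1.38 and Upk1b by 1.36 on the log2 scale. 1700028P14Rik and St6galnac2 fell by 1.37 and 1.28. The smallest p-values among falls belonged to Luzp2, Dnajc8, Swi5, P2ry12 and Gimap6. Luzp2 was at 114, 91.9 and 122 CPM at 1 hr and at 67.4, 64.1 and 63.0 CPM at 3 hr (log2 fold change -0.89, SE 0.07, adjusted p = 8.83e-06).

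The same contrast of times in the LTP slices, which came from the same animals, called 6676 genes (35.9%). Of the 6102 genes called in controls, 4330 (71.0%) were called in the same direction in LTP slices, and 5884 (96.4%) had the same sign, against 80.5% of all genes tested. A direct test of the difference between the 2 time effects called 11 of 18584 genes (0.0592%). This count ignores that LTP and control slices of a time came from the same animals. With animal as a block, a fit added after the data were seen, 13 genes were called, and 7 with all 12 libraries. Cxcl10, Il1b and P2ry12 had log2 fold changes of 2.35, 2.4 and -1.39 in LTP slices. Other values lay further apart. The endothelial list had 4 genes higher and 3 lower in LTP slices (0 and 5 in controls), and the mural list 1 and 3 (0 and 7 in controls). Of all genes tested 18.6% were called higher and 17.3% lower in LTP slices, and the difference was not tested for lists. In the direct test Myh11, Acta2, Anpep, Tek, Emcn and Slco1a4 were not called (adjusted p = 0.533, 0.424, 0.906, 0.867, 0.979 and 0.939). Ccn1 and Pclo had log2 fold changes of 0.24 and -0.06 in LTP slices, against -0.71 and -0.74 in controls, and the tests of these differences did not pass (adjusted p = 0.111 and 0.14). Pim3 rose by 0.73 in LTP slices (adjusted p of the difference from controls = 0.031), but the difference was not called with 1 hr control replicate 2 included (adjusted p = 0.533). For Arc the time effect in LTP slices was -0.12 (adjusted p of the difference = 0.031), and this difference too was not called with that library (adjusted p = 0.673).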

How the data were processed

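Total RNA with ribosomal RNA depleted (a stranded kit) was sequenced from control and LTP mini-slices, with 3 animals for each group. The authors aligned the reads to the mouse genome (mm10) with STAR and deposited raw counts per gene in 2 tables, 1 for each time. Whether counting used strand, and how reads matching several genes were treated, is not given in the sources used here, so copies, pseudogenes and antisense genes are uncertain. The columns of the authors' own tests were not used, and 0 columns belonged to other samples.

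The 2 tables were joined on 41091 gene IDs, of which 40217 matched the annotation and 874 did not. Genes were filtered with filterByExpr and normalised by TMM, and a model with 4 groups was fitted to 11 libraries with the quasi-likelihood test of edgeR (4.0.16, R 4.3.3), 1 hr control replicate 2 being left out as in the study. P-values were adjusted over all genes tested by the Benjamini-Hochberg method, and a call needed an adjusted p below 0.1 with a fold change over 1.2. The fold changes are edgeR estimates on the log2 scale with their standard errors (SE). Alternatives included DESeq2 (1.42.0), limma (3.58.1), other scalings, filters and samples, offsets for GC content and length, and each fitted control library left out. Tested on simulated counts, the script called 93% of genes changed 2-fold and 79% of those changed 1.5-fold, with 19 false calls among 18246 genes. In the simulation 100 genes were changed at each fold, and libraries were independent, without a GC gradient or shared animals. It therefore does not give the share of false calls in the real data.

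Genes named by rule were, in each direction, the top 12 by log2 fold change (called, protein-coding, at least 1 CPM, no overlap over 6 libraries), the 5 smallest p-values and the top 3 called members of each list, with Arc, Homer1 and Hprt. Other list members were picked for naming after their values were seen. The comparison and its lists were chosen with earlier results of these data known. The requirement of a call in all 3 fits was set after the data were seen. P-values of the main fit rest on the spread between libraries within the 4 groups, LTP slices included. The fit had 7 residual degrees of freedom, against 3 with the 5 control libraries alone. It treated LTP and control libraries of the same animal as independent. Some list members are not reported here.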

Additional observations from a re-analysis of the deposited data

Results flagged for a closer look

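The time effect (3 hr against 1 hr) differed between LTP and control slices for 11 of 18584 genes by the interaction term of the edgeR model without 1 hr control replicate 2, and for 10 of 18240 with it, 7 genes being called in both. The 3 genes named here were called only without that library. For Pim3 the difference (LTP minus control, log2) was -0.753 (adjusted p = 0.031, and 0.533 with all 12 libraries). For Gm13889, a gene that shares 20.8% of its exonic bases with another, it was -0.838 (adjusted p = 0.0231, and 0.351 with all 12 libraries). For Arc it was -0.679 (adjusted p = 0.031, and 0.673 with all 12 libraries), and samples had been chosen for raised Arc in LTP slices.

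With animal as a block, added after the data were seen, the differences were -0.814 for Pim3, -0.895 for Gm13889 and -0.7 for Arc without that library (adjusted p = 0.0201, 0.0148 and 0.0209), and -0.565, -0.658 and -0.474 with it (adjusted p = 0.528, 0.383 and 0.572). Groups were not searched for outlying samples beyond 1 hr control replicate 2. In the comparison of controls each other control library was left out in turn.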

How the results depend on the processing

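With single libraries left out, the genes that differed between 3 hr and 1 hr controls numbered between 4212 and 5894, and the genes lower at 3 hr than at 1 hr in controls between 1855 (1 hr control replicate 3 left out) and 2779 (3 hr control replicate 1 left out). Leaving out 1 hr control replicate 1 or 3 leaves a single 1 hr control, which is assumed to vary like the other groups. A fold change over 1.5 gave 2405 genes, made up of 1118 lower and 1287 genes higher at 3 hr than at 1 hr in controls. DESeq2 called 5878 genes and limma voom 6107, and scaling to total counts called 3496 higher and 2626 lower. Of 179 named genes 177 were called, and 8 changed sign in at least 1 of 18 alternatives. A total of 109 kept their call in every alternative that tested them. The setting with at least 10 counts in each fitted library tested 168 of the 179. The 2 settings with a single 1 hr control lost 28 and 31 calls. With the GC and length offsets 38 calls were lost with the sign kept, and the sign of 8 genes changed, Hprt among them. With GC and length offsets the sign changed for the log2 fold change of Slc32a1 (-0.00188), Il18 (0.0178), Dlgap3 (-0.0783), Shank3 (-0.0472), Shank1 (-0.0356), Hist1h2bc (0.08) and Kcnq1ot1 (0.0908). The log2 fold change of Hprt, not called and -0.0322 in the reported fit, was 0.0783 with all 12 libraries, 0.0706 with the 6 controls alone, 0.00722 with total counts, 0.000168 with at least 10 counts in each library, 0.421 with the offsets, and between -0.0927 and 0.113 with single libraries left out (the latter being 1 hr control replicate 3). The median log2 fold change of meningeal fibroblasts was between -0.641 and 0.0276 in the same way, the latter when 1 hr control replicate 1 was left out. The cause of these changes was not tested.

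Replicate numbers were not shown to pair libraries across times, since the correlations of same-numbered libraries were 0.0502, 0.0134 and -0.0989. With a replicate block the genes that differed between 3 hr and 1 hr controls numbered 4826 over 12 libraries and 5068 over the 6 controls, and the log2 fold change of Hprt was 0.0755 and 0.0741. Depth limited Cxcl3 and Mmp3, which had 0 counts in 1 hr control replicate 1.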
